A study of Fukomys damarensis and Heterocephalus glaber and Cavia porcellus with 28 samples.

Results

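The genes described here set the electrical timing of the heartbeat: 9 ion channel genes, chosen by name. They comprise the transient outward potassium channel genes Kcnd2, Kcnd3 and Kcnip2, the delayed rectifier genes Kcnq1 and Kcnh2, the inward rectifier genes Kcnj2 and Kcnj3, and the pacemaker channel genes Hcn2 and Hcn4. A row of the heart table, keyed by mouse Ensembl identifier, was found for 8 of the 9 genes among 13928 rows, and Hcn2 is not analysed here. Hearts came from 3 naked mole-rats (Heterocephalus glaber) aged 13, 15 and 17 months and from 5 Damaraland mole-rats (Fukomys damarensis) aged 36 or 48 months, 3 guinea pigs (Cavia porcellus) aged 2.3 months and 3 mice aged 2 months. All 14 animals were male and untreated as far as the labels say, and each library came from a separate animal. The labels name neither a strain nor the chamber of the heart that was sampled. Age went with species, so the effects of age and species cannot be told apart. The series compares gene expression in the mole-rats with that in the guinea pig and mouse, which serve as outgroups, from ribosomal-RNA-depleted total RNA.

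As background, a cardiac action potential is shaped by potassium currents that act in sequence. The transient outward current gives the fast early repolarisation, and its channels are built from Kv4 pore subunits (Kcnd2 and Kcnd3) with the calcium-binding partner KChIP2 (Kcnip2). The delayed rectifier currents end the plateau: Kcnh2 encodes the pore of the rapid component, and Kcnq1, with its partner Kcne1, that of the slow component. Kcnj2 carries the inward rectifier current that holds the resting potential, Kcnj3 is a subunit of the acetylcholine-activated channel, prominent in atria, and Hcn channels carry the pacemaker current of the sinoatrial node. Ventricular cells of the mouse are known for a short action potential with a large transient outward current, and those of the guinea pig for a long plateau with little or none.

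Values are on the deposited log2-like scale, on which a gene with 0 reads in heart has the value 5.3645. Differences of rare genes are compressed on it: a 2-fold change moved the value by 0.27 from 10 reads, by 0.66 from 100 and by 0.94 from 1000. Scaled reads are the read numbers recovered from these values, divided by the size factor of the library. Total recovered reads ran from 4089633 to 26985779 per heart library, and the lowest totals were those of naked mole-rat replicate 3 and Damaraland replicate 5 (8551766). The sources used here do not say whether the values were corrected for gene length, and they do not give the reference for each species. A difference between species in level therefore cannot be told apart from one in the length or completeness of the gene model, or in how many cells of a type the tissue held against the RNA of each cell. All 8 listed cardiomyocyte markers had a row, and their summed level was 552388 to 1823084 scaled reads in the 14 libraries. The summed atrial markers (6 of 7 with a row) differed widely, at 13968 to 50937 scaled reads in naked mole-rat, 24527 to 56828 in Damaraland mole-rat, 11832 to 33452 in guinea pig and 994 to 4132 in mouse.

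The mouse stood apart from the other species in 7 of the 8 genes. Kcnd2, Kcnd3, Kcnip2, Kcnj3 and Hcn4 were higher in mouse than in each of the other 3 species, and Kcnj2 and Kcnq1 were lower. A gene was called when limma gave an adjusted p under 0.05, over all 10667 genes tested, and the means differed by at least 1. Among all genes tested, 6.60% were called higher and 3.80% lower in mouse than in each other species. Against the mouse, 7 of the 8 genes were called from naked mole-rat (38.2% of all genes), 7 from Damaraland mole-rat (34.9%) and 7 from guinea pig (32.1%). Kcnd2 and Kcnd3 passed the filter on low values only through their mouse libraries, so a difference was built into their presence in these counts. Without guinea pig replicate 2 or 3 the count of 7 became 6 by the loss of Kcnj3. Without Damaraland replicate 1 or 4, guinea pig replicate 1 or mouse replicate 3 it became 6 by the loss of Kcnq1, whose differences then lay just under 1.

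Fewer of these genes were called among the other 3 species. Between the mole-rats 0 of 8 genes were called, where 29.4% of all genes were, although 5 had a limma adjusted p under 0.05 with a difference below 1 (Kcnj2, Kcnq1, Kcnh2, Kcnip2 and Hcn4). These were also the 5 at an unadjusted p under 0.05, and voom on recovered reads called 3 genes (Kcnip2, Hcn4 and Kcnd2). Between Damaraland mole-rat and guinea pig 0 of 8 were called (29.7% of all genes), with 3 under that adjusted p alone (Kcnj2, Kcnh2 and Hcn4) and 4 at an unadjusted p under 0.05; voom called 2 (Hcn4 and Kcnd2). Between naked mole-rat and guinea pig Hcn4 and Kcnh2 were called, 2 of 8 (33.0% of all genes), at 5 under an unadjusted p of 0.05; voom called 4, with Kcnip2 and Kcnd3 besides. Over all pairs of species there were 23 calls among 48 comparisons, or 47.9%, beside 32.9% for all genes. Without Kcnd2 and Kcnd3 there were 17 calls among 36, or 47.2%.

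**Figure D1:**
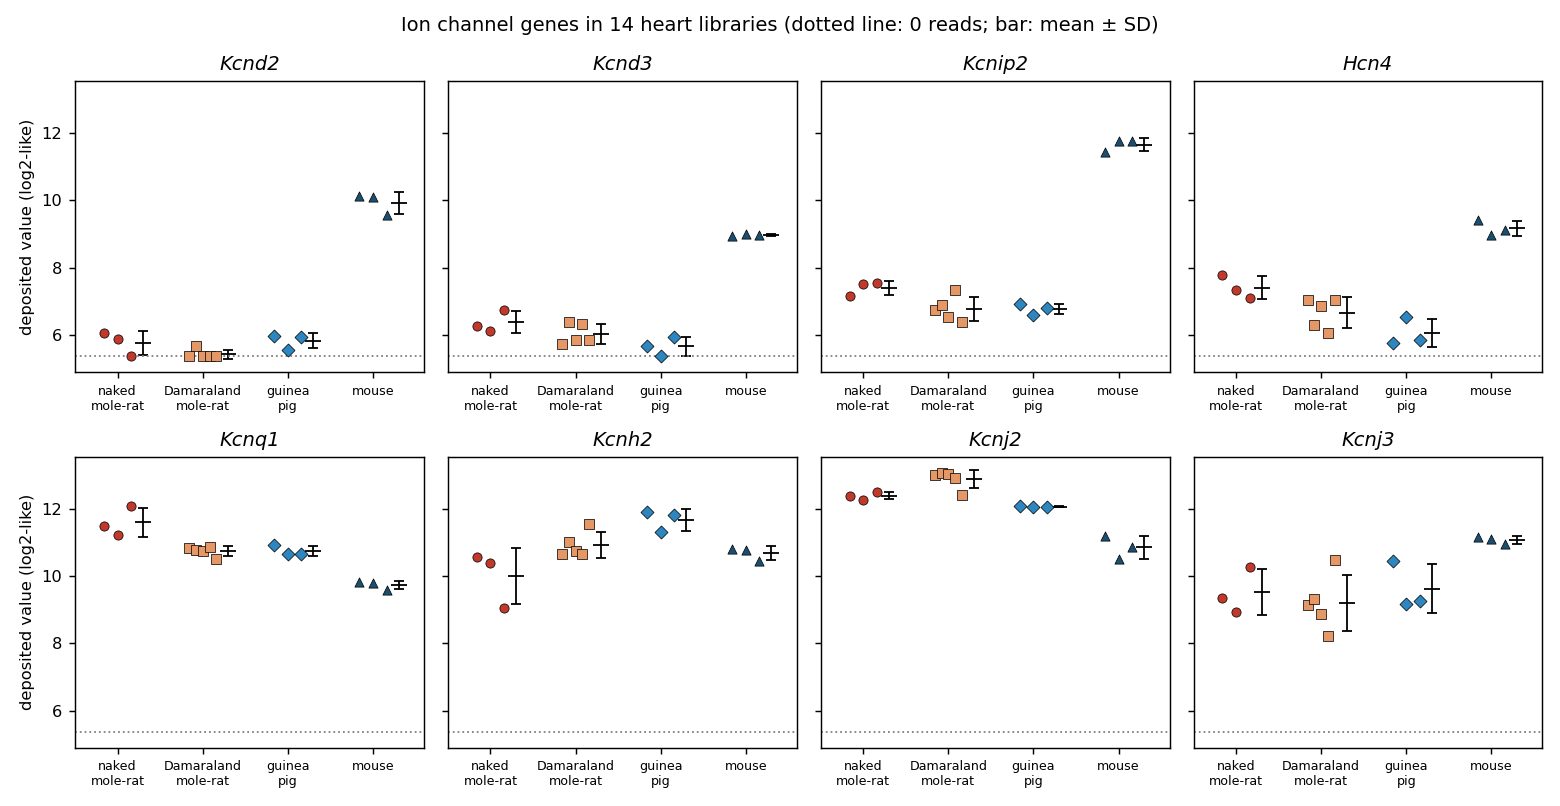
Deposited log2-like values of the 8 genes (y axis) in each of 14 heart libraries, grouped by species (x axis); points are single animals, and the bars beside them are the mean and SD. In the top row the mouse points lie above those of every other species, and the mouse points of Kcnq1 and Kcnj2 lie below them.

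Kcnd2 (ENSMUSG00000060882), which encodes the Kv4.2 pore subunit, was nearly confined to mouse hearts among these libraries. The mouse libraries held 1147, 1113 and 748 scaled reads in order of replicate number. Naked mole-rat hearts held 10.3, 5.7 and 0, and guinea pig hearts 7.9, 0.8 and 7.0. In Damaraland mole-rat, 1 library held 2 reads and the other 4 held none. A count of 0 allows up to 3 reads per library by counting error. Every mouse library lay far above every other library, and the other 3 species overlapped. Mean values were 5.76 ± 0.35 (SD, n = 3) in naked mole-rat, 5.42 ± 0.13 (n = 5) in Damaraland mole-rat, 5.82 ± 0.22 (n = 3) in guinea pig and 9.92 ± 0.31 (n = 3) in mouse. The difference of naked mole-rat from mouse was -4.16 (SE 0.20, limma adjusted p 3.1e-11), that of Damaraland mole-rat -4.50 (SE 0.18, adjusted p 2.53e-12) and that of guinea pig -4.11 (SE 0.20, adjusted p 4.77e-11). On recovered reads, where rare genes are not compressed, voom gave -7.51, -10.42 and -7.82. Kcnd2 passed the filter on low values only through its mouse libraries, so a difference from mouse was built into these tests. In pooled reads per size factor, the mouse to naked mole-rat ratio was 144, with a 95% counting interval of 92.3 to 240. The ratio to guinea pig was 188 (122 to 309). The ratio to Damaraland mole-rat was 2528, but with only 2 reads its interval ran from 699 to 20882. These intervals cover counting error only.

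Kcnd3 (ENSMUSG00000040896), the gene of the Kv4.3 pore subunit, had fewer scaled reads than Kcnd2 in mouse, and few in the other species. Reads are not known to be corrected for gene length, so they do not rank the levels of different genes. Mouse hearts held 451, 477 and 473 scaled reads, a narrow range. Naked mole-rat hearts held 18.7, 12.9 and 45.1, the last in the shallowest library, from 11 reads. Damaraland hearts held 2.9, 23.5, 5, 21 and 5.2, and guinea pig hearts 2.2, 0 and 7.0. Mouse and non-mouse libraries did not overlap, and neither did naked mole-rat and guinea pig. Differences from mouse were -2.59 (SE 0.21, limma adjusted p 2.13e-08) for naked mole-rat, -2.94 (SE 0.19, adjusted p 1.04e-09) for Damaraland mole-rat and -3.31 (SE 0.21, adjusted p 1.38e-09) for guinea pig, and with voom -4.65, -5.72 and -7.87. As for Kcnd2, the filter on low values was passed only through mouse, so a difference from mouse was built into these tests. Naked mole-rat exceeded guinea pig by 0.73 (SE 0.21, adjusted p 0.00761), below the size required for a call and from totals of 49 and 11 reads; voom called it, at 3.22 (adjusted p 0.00623). The pooled mouse ratio was 25.8 (19.4 to 34.9) to naked mole-rat, 40.8 (31.4 to 54.1) to Damaraland mole-rat and 158 (87.8 to 316) to guinea pig.

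Kcnip2 (ENSMUSG00000025221), whose product KChIP2 brings Kv4 channels to the cell surface and slows their inactivation, followed the pore genes. Mouse hearts held 2966, 3803 and 3790 scaled reads. Naked mole-rat hearts held 80.4, 123 and 123, Damaraland hearts 45.4, 54.7, 31.4, 98.8 and 24.2, and guinea pig hearts 58.2, 35.6 and 48.0. The transcript was detected in all 14 libraries, with at least 14 reads in each, and all mouse libraries lay far above the rest. Mean values were 7.40 ± 0.21, 6.78 ± 0.36, 6.77 ± 0.16 and 11.66 ± 0.20 (SD, in the same order of species). The differences from mouse, -4.26 (SE 0.21), -4.89 (SE 0.19) and -4.89 (SE 0.21), had limma adjusted p-values of 4.85e-11, 1.96e-12 and 1.3e-11. Naked mole-rat exceeded Damaraland mole-rat by 0.63 (adjusted p 0.00917) and guinea pig by 0.64 (adjusted p 0.0169), which did not reach the size for a call. Damaraland mole-rat and guinea pig differed by 0.01 (SE 0.19, adjusted p 0.976). The pooled mouse ratio was 32.9 (29.3 to 37.1) to naked mole-rat, 68.3 (60.3 to 77.6) to Damaraland mole-rat and 72.8 (62.8 to 84.9) to guinea pig.

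Neuronal markers were set beside these genes, since neurons also express Kv4 channels, as were ventricular markers. The summed level of the 10 neuronal markers was lowest in mouse, at 139 to 164 scaled reads, against 234 to 283 in naked mole-rat, 856 to 2310 in Damaraland mole-rat and 410 to 1169 in guinea pig. Single markers differed in order: Stmn2 (59.5 to 73.1 scaled reads in mouse, at most 16.4 elsewhere) and Dbh (46.5 to 77.1 against at most 2.81) were highest in mouse, and Syt1, Nefl and Nefm were lower there than in most other libraries. The part of neurons in the levels of Kcnd2, Kcnd3 and Kcnip2 was not tested. Summed ventricular markers (4 of 5 with a row) were 204306 to 224698 scaled reads in mouse and 202634 to 641890 in the other species.

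**Figure D2:**
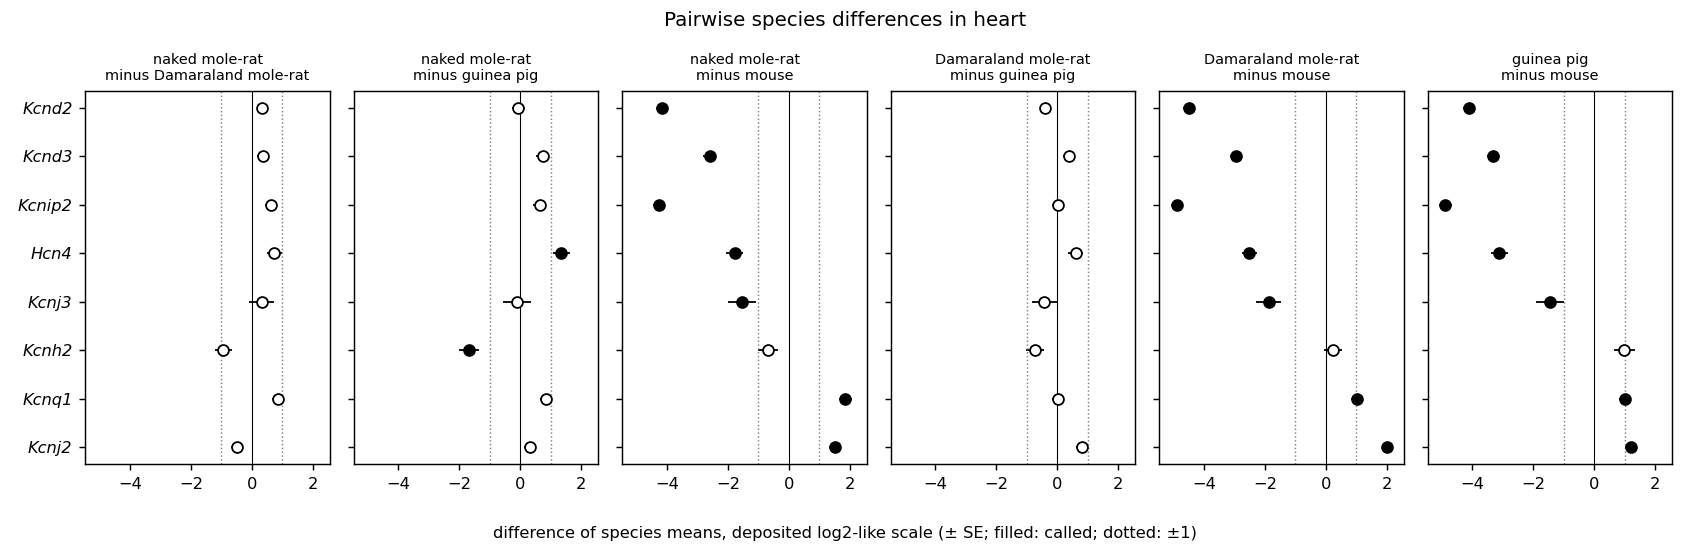
Difference of species means on the deposited log2-like scale (x axis, with limma SE) for each gene (y axis) in the 6 pairs of species; filled points were called and dotted lines mark a difference of 1 in each direction. The 3 panels against mouse hold 21 of the 23 calls, and the naked minus Damaraland mole-rat and Damaraland mole-rat minus guinea pig panels hold none.

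Kcnq1 (ENSMUSG00000009545), the pore gene of the slow delayed rectifier, ran the opposite way and was lowest in mouse. Mouse hearts held 915, 895 and 768 scaled reads. Guinea pig hearts held 2053, 1712 and 1686, Damaraland hearts 1946, 1875, 1832, 1960 and 1521, and naked mole-rat hearts 3087, 2568 and 4704. The naked mole-rat libraries were all above, and the mouse libraries all below, every library of the other species. Mean values were 11.60 ± 0.44, 10.75 ± 0.14, 10.75 ± 0.15 and 9.74 ± 0.12 (SD, in naked mole-rat, Damaraland mole-rat, guinea pig and mouse). Naked mole-rat exceeded mouse by 1.86 (SE 0.20, limma adjusted p 3.9e-07). The excess of Damaraland mole-rat over mouse was 1.01 (SE 0.18, adjusted p 8.14e-05) and that of guinea pig 1.01 (SE 0.20, adjusted p 0.000325), both at the edge of the size threshold. Naked mole-rat was above each of the middle species by 0.85 (adjusted p 0.000519 and 0.00125), under that threshold, and the middle species differed by 0.01 (SE 0.18, adjusted p 0.973). In the mouse the long antisense transcript Kcnq1ot1 is known to arise within Kcnq1. The sources used here do not say whether counting used strand, so reads of the antisense transcript cannot be told apart from those of Kcnq1.

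Kcnh2 (ENSMUSG00000038319), the pore gene of the rapid delayed rectifier, was highest in guinea pig and was the gene for which no call involved mouse. Guinea pig hearts held 4151, 2691 and 3881 scaled reads and mouse hearts 1898, 1869 and 1459. Damaraland hearts held 1701, 2194, 1825, 1703 and 3217, and naked mole-rat hearts 1609, 1382 and 496. The guinea pig libraries were above all naked mole-rat and mouse libraries, and the last naked mole-rat library was the lowest of all 14. Mean values were 10.00 ± 0.84, 10.93 ± 0.37, 11.67 ± 0.33 and 10.68 ± 0.20 (SD) in naked mole-rat, Damaraland mole-rat, guinea pig and mouse. Naked mole-rat was below guinea pig, with a difference of -1.67 (SE 0.33, limma adjusted p 0.000338). Without naked mole-rat replicate 3 it was -1.19 (adjusted p 0.000861) and remained called. Guinea pig exceeded mouse by 0.99 (SE 0.33, adjusted p 0.0162), just under the size for a call, which it passed with voom (1.02, adjusted p 0.0105). Damaraland mole-rat and mouse, neighbours in the order, differed by 0.24 (SE 0.29, adjusted p 0.479).

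The ratio of Kcnq1 to Kcnh2 reads, compared across libraries and not as a level of either gene, was highest in naked mole-rat. It was 1.92, 1.86 and 9.49 in the naked mole-rat libraries, and 1.14, 0.85, 1.0, 1.15 and 0.47 in those of Damaraland mole-rat. Guinea pig libraries had 0.49, 0.64 and 0.43, and mouse libraries 0.48, 0.48 and 0.53. All naked mole-rat libraries exceeded all others, and the mouse and guinea pig libraries overlapped in this ratio although both genes were lower in mouse. The value of 9.49 came from the shallowest library, which also had the highest scaled reads of the atrial marker Bmp10 (1655). The ratios of 1.92 and 1.86 came from libraries with 12.2 and 6.46 of Bmp10. Nppa, Myl4, Sln and Dkk3 were also highest in the library with 9.49 among naked mole-rats, and Stard10 was lowest there (1385 against 1949 and 2378). Damaraland replicate 5, with 1367 of Bmp10, had the ratio of 0.47. The part of depth or atrial tissue in the ratio was not tested.

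Kcne1, which encodes the small partner subunit of the slow delayed rectifier, was rarest where Kcnq1 was highest; it was singled out after its values were seen. Naked mole-rat hearts held 0, 2.87 and 0 scaled reads of Kcne1. Damaraland hearts held 126, 71.4, 136, 101 and 17.3, guinea pig hearts 50.3, 21.2 and 27.9, and mouse hearts 303, 174 and 117. No naked mole-rat library overlapped any other. Naked mole-rat was below Damaraland mole-rat by a difference of -1.68 (SE 0.28, limma adjusted p 5.69e-05), below guinea pig by -1.05 (SE 0.31, adjusted p 0.00715) and below mouse by -2.45 (SE 0.31, adjusted p 2.89e-06). Mouse, with the lowest Kcnq1, had the highest mean Kcne1 value (7.93), above guinea pig (6.54; difference -1.39 for guinea pig minus mouse, SE 0.31, adjusted p 0.000937). Damaraland mole-rat minus mouse was -0.77 (SE 0.28, adjusted p 0.0211), under the size for a call, and the libraries of these species overlapped.

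Set against each other within a library, the transient outward and delayed rectifier genes gave a balance that separated mouse from the rest. The reads of Kcnd2, Kcnd3 and Kcnip2 made up 61.9%, 66.1% and 69.2% of the reads of the 5 genes in the mouse libraries. This share compares libraries and does not rank the genes, since reads are not known to be corrected for gene length. The Wilson 95% counting intervals were 60.9% to 62.8%, 65.2% to 67.1% and 68.2% to 70.2%. In naked mole-rat hearts the share was 2.28%, 3.45% and 3.13%, with intervals between 1.90% and 4.22%. Damaraland hearts had 1.31%, 1.93%, 0.984%, 3.17% and 0.616%, and guinea pig hearts 1.09%, 0.822% and 1.10%. Naked mole-rat libraries all exceeded those of guinea pig, and Damaraland libraries overlapped both. The mean deposited value of the 3 transient outward genes minus that of the 2 delayed rectifier genes was -0.03 ± 0.12 (SD, n = 3) in mouse. It was -4.29 ± 0.26 (n = 3) in naked mole-rat, -4.77 ± 0.28 (n = 5) in Damaraland mole-rat and -5.13 ± 0.11 (n = 3) in guinea pig. No test was attached to this score, since its genes were chosen with results of these data known. Both sums differed in mouse: transient outward genes summed to 4564 to 5392 scaled reads in mouse against 29.4 to 168 elsewhere, and delayed rectifier genes to 2227 to 2813 against 3646 to 6204.

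**Figure D3:**
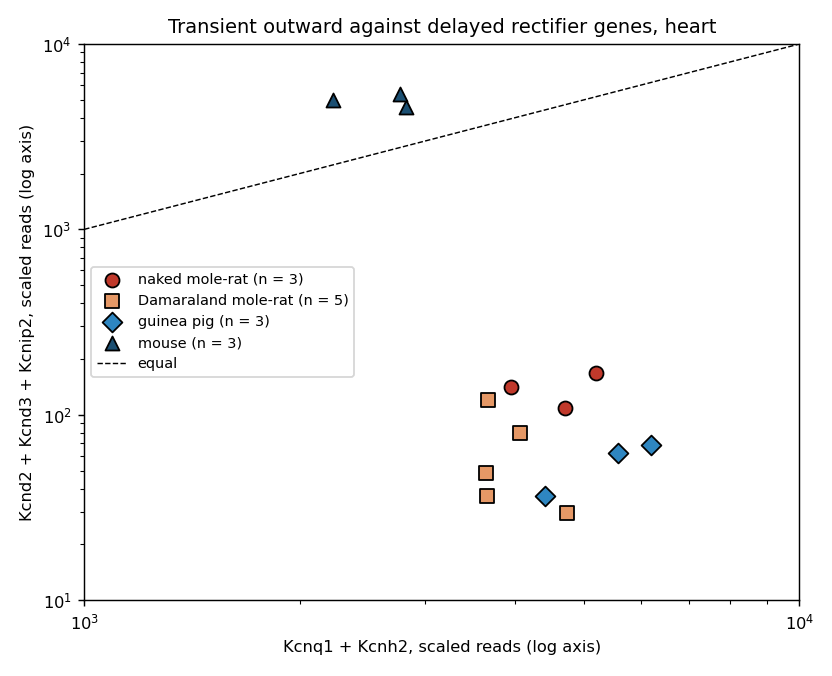
Summed scaled reads of Kcnd2, Kcnd3 and Kcnip2 (y axis, log scale) against those of Kcnq1 and Kcnh2 (x axis, log scale). Each point is 1 heart library. The dashed line marks equal sums of reads, which are not known to be corrected for gene length. The mouse libraries lie above the line at 4564 to 5392 scaled reads, and all others lie below it at 29.4 to 168.

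Kcnj2 (ENSMUSG00000041695), the main subunit of the inward rectifier current, was abundant in every library and lowest in mouse. Mouse hearts held 2513, 1534 and 1959 scaled reads. Guinea pig hearts held 4753, 4610 and 4642, naked mole-rat hearts 5862, 5416 and 6265, and Damaraland hearts 9012, 9386, 9151, 8502 and 5867. No mouse library overlapped another species, and the lowest Damaraland library fell within the naked mole-rat range. Mean values were 12.39 ± 0.10, 12.88 ± 0.28, 12.07 ± 0.02 and 10.86 ± 0.34 (SD) in naked mole-rat, Damaraland mole-rat, guinea pig and mouse. Damaraland mole-rat exceeded mouse by 2.02 (SE 0.18, limma adjusted p 5.12e-08), naked mole-rat by 1.53 (SE 0.20, adjusted p 5.34e-06) and guinea pig by 1.21 (SE 0.20, adjusted p 7.63e-05). Damaraland mole-rat was above guinea pig by 0.81 (SE 0.18, adjusted p 0.000975), under the size for a call. Naked mole-rat and guinea pig, neighbours in the order, differed by 0.32 (SE 0.20, adjusted p 0.187).

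Other genes of the inward rectifier family were distributed in their own way over the species. Kcnj12, the Kir2.2 subunit gene, was highest in mouse, with 683, 621 and 669 scaled reads against at most 98.3 in any other library. This gene lay outside the rule for named genes and was chosen after its values were seen. Kcnj4, the Kir2.3 subunit gene, was high in guinea pig only, at 2938, 2424 and 2349 scaled reads against 2.1 to 41.0 in the other 11 libraries. Kcnj14, the Kir2.4 subunit gene, had 257, 243 and 338 scaled reads in guinea pig, 23.5, 49.1 and 34.6 in mouse, 0 in the 3 naked mole-rat libraries and at most 5.25 in Damaraland mole-rat. So the species with the lowest Kcnj2, mouse, had the highest Kcnj12, and guinea pig expressed Kcnj4 beside Kcnj2. Guinea pig minus mouse was -2.66 for Kcnj12 (SE 0.15, limma adjusted p 1.79e-10) and 5.39 for Kcnj4 (SE 0.22, adjusted p 4.33e-12). Kcnj4 passed the filter on low values only through guinea pig, so a difference was built into its test.

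Kcnj3 (ENSMUSG00000026824), a subunit gene of the acetylcholine-activated channel, was highest in mouse and varied strongly within the other species. Mouse hearts held 2465, 2340 and 2098 scaled reads. Naked mole-rat hearts held 631, 457 and 1278, Damaraland hearts 531, 622, 431, 244 and 1492, and guinea pig hearts 1465, 544 and 586. In each of these 3 species a single library stood well above the rest, and all still lay below every mouse library. Mean values were 9.52 ± 0.68, 9.20 ± 0.83, 9.62 ± 0.72 and 11.07 ± 0.11 (SD) in naked mole-rat, Damaraland mole-rat, guinea pig and mouse. The differences from mouse were -1.55 (SE 0.46, limma adjusted p 0.00675), -1.87 (SE 0.41, adjusted p 0.000689) and -1.45 (SE 0.46, adjusted p 0.0115). The guinea pig difference lost its call without guinea pig replicate 2 (adjusted p 0.056) or 3 (adjusted p 0.0506). The 3 other species did not differ beyond their spread, with adjusted p-values of 0.385 to 0.858.

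Atrial markers moved with some of the high Kcnj3 libraries and not with others. Bmp10, a gene known for atrial expression in the adult heart, was at 1655 scaled reads in naked mole-rat replicate 3 and 1367 in Damaraland replicate 5, the highest Kcnj3 libraries of these species. It was at 12.2 and 6.46 in the other naked mole-rat hearts and at 4.83 to 45.2 in the other Damaraland hearts. Myl4, the atrial essential light chain, was at 5089 and 2308 in these same libraries. Nppa was also highest there within each species (35544 and 20782), and the other atrial markers differed in order. In naked mole-rat replicate 3 Sln (1008) and Dkk3 (6257) were highest and Stard10 (1385) was lowest. In Damaraland hearts Sln (2421) and Dkk3 (19185) were highest in replicate 2 and Stard10 (28868) in replicate 3. Replicate 5 held 1725, 9914 and 18046 of these. In guinea pig the high Kcnj3 library, replicate 1, had 1.44 scaled reads of Bmp10 and 125 of Myl4, while replicate 2 had 6890 of Myl4 with 544 of Kcnj3. Mouse hearts, with the most Kcnj3, had 0, 0 and 0.887 scaled reads of Bmp10 and 37.4 to 55.0 of Myl4. Kcnh2 was low in naked mole-rat replicate 3 and high in Damaraland replicate 5. The part of atrial tissue in the spread of Kcnj3, Kcnq1 and Kcnh2 within species was not tested.

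**Figure D4:**
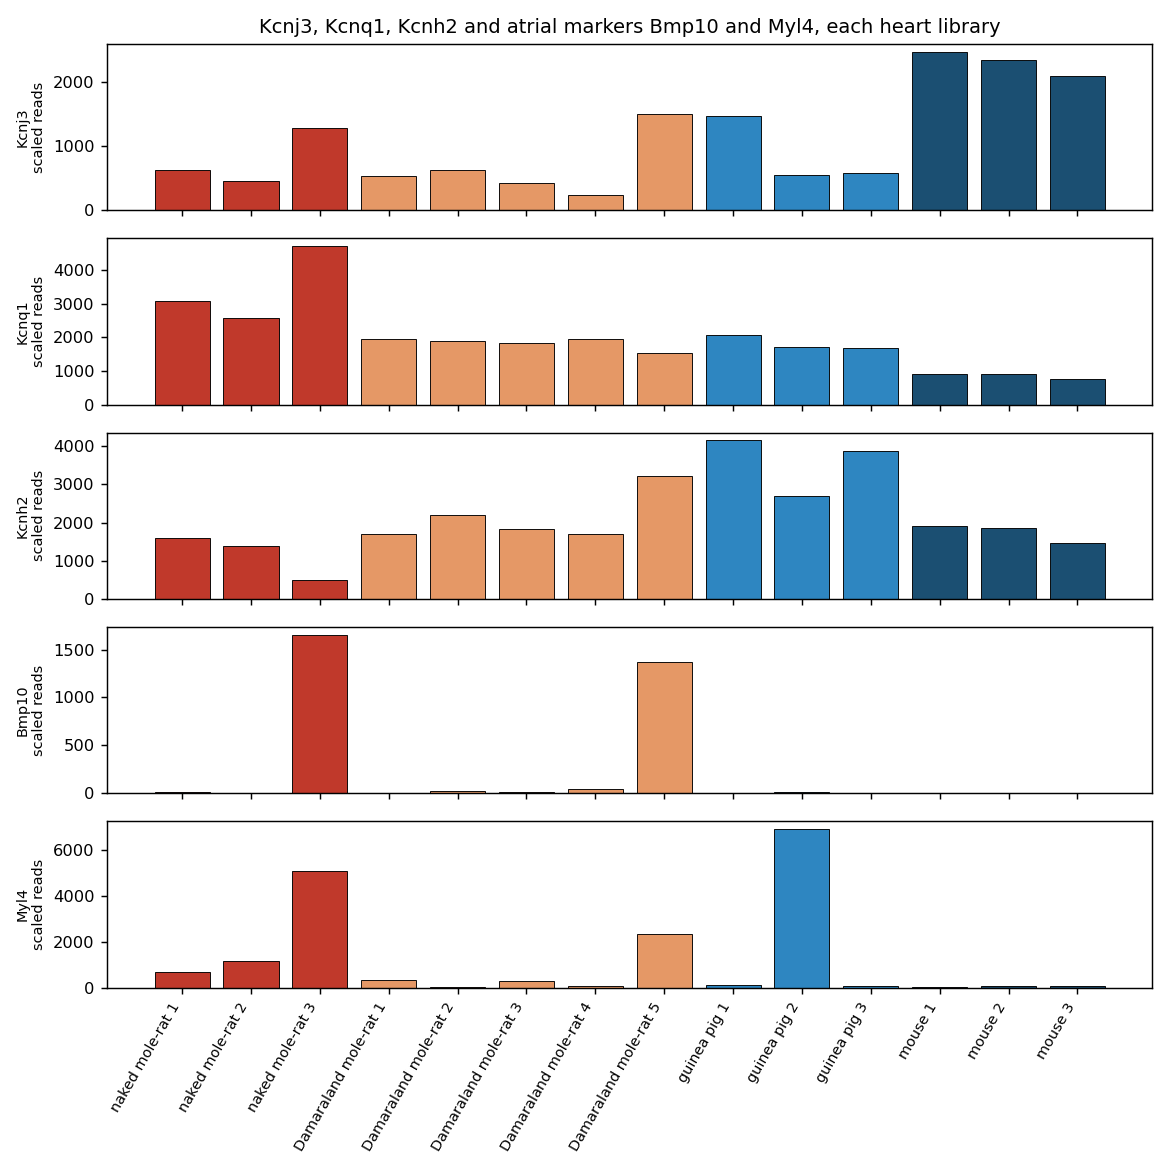
Scaled reads (y axes, from 0) of Kcnj3, Kcnq1, Kcnh2 and the atrial markers Bmp10 and Myl4 in each heart library (x axis, coloured by species). Bmp10 is high in naked mole-rat replicate 3 (1655) and Damaraland replicate 5 (1367) alone, and Kcnj3 is highest in the mouse libraries, where Bmp10 is at most 0.887.

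Kcnj5, which encodes the subunit that pairs with Kcnj3 in the acetylcholine-activated channel, followed another order and was highest in the mole-rats. Naked mole-rat hearts held 5741, 6361 and 6793 scaled reads and Damaraland hearts 5697, 10000, 6046, 8170 and 9420. Guinea pig hearts held 486, 1283 and 494, and mouse hearts 1835, 1625 and 1753. Every mole-rat library lay above every outgroup library. Each mole-rat was called above each outgroup, by 1.80 (SE 0.29, limma adjusted p 3.79e-05, naked mole-rat minus mouse) to 3.33 (SE 0.26, adjusted p 1.13e-08, Damaraland mole-rat minus guinea pig). The partners thus had opposite orders between mole-rats and mouse: Kcnj3 was higher and Kcnj5 lower in mouse.

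Hcn4 (ENSMUSG00000032338), the main pacemaker channel gene of the sinoatrial node, was highest in mouse and lowest in guinea pig. Mouse hearts held 668, 468 and 526 scaled reads and naked mole-rat hearts 159, 99.7 and 73.8. Damaraland hearts held 69.5, 19.5, 53.5, 10.5 and 69.1, and guinea pig hearts 3.6, 31.4 and 5.2. The ranges of mouse, naked mole-rat and Damaraland mole-rat did not overlap, while those of Damaraland mole-rat and guinea pig did. The mole-rat ranges were close, at 73.8 against 69.5, and the 73.8 came from 18 reads in the shallowest library. Mean values were 7.40 ± 0.34, 6.66 ± 0.46, 6.05 ± 0.42 and 9.17 ± 0.23 (SD) in naked mole-rat, Damaraland mole-rat, guinea pig and mouse. The differences from mouse were -1.77 (SE 0.28, limma adjusted p 3.37e-05), -2.51 (SE 0.25, adjusted p 1.74e-07) and -3.12 (SE 0.28, adjusted p 7.38e-08). Naked mole-rat exceeded guinea pig by 1.35 (SE 0.28, adjusted p 0.000507). On recovered reads voom gave -2.24, -3.96 and -5.98 from mouse and 3.74 for naked mole-rat over guinea pig. The steps from naked to Damaraland mole-rat, 0.74 (adjusted p 0.0161), and from Damaraland mole-rat to guinea pig, 0.61 (adjusted p 0.043), did not reach the size for a call. The pooled mouse ratio was 4.64 (4.13 to 5.23) to naked mole-rat, 12.9 (11.2 to 14.9) to Damaraland mole-rat and 43.4 (32.6 to 59.1) to guinea pig.

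The summed sinoatrial and conduction system markers (8 of 9 with a row) did not follow the order of Hcn4. They were at 439 to 679 scaled reads in mouse, 512 to 610 in naked mole-rat, 477 to 639 in guinea pig and 1888 to 3889 in Damaraland mole-rat. Single markers went different ways. Cntn2 was at 228, 42.2 and 174 scaled reads in mouse against at most 18.7 in naked mole-rat and guinea pig, and Gja5, at 1724 to 3744, made up most of the Damaraland sum. Tbx3, a transcription factor gene of the conduction system, was at 226 to 275 in mouse, 221 to 331 in guinea pig, 81.9 to 199 in naked mole-rat and 34.7 to 65.6 in Damaraland mole-rat. The part of conduction tissue in the level of Hcn4 was not tested.

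For the comparison the series was set up for, the mean of the mole-rats was set against the mean of the outgroups. In this average contrast 4 of the 8 genes were called (23.4% of all genes). Kcnj2 was higher in mole-rats, 1 of 8 (10.8% of all genes), by 1.17 (SE 0.14, limma adjusted p 1.09e-06). Lower were Kcnd2 by -2.28 (SE 0.14, adjusted p 3.75e-10), Kcnip2 by -2.13 (SE 0.14, adjusted p 1.75e-09) and Kcnd3 by -1.11 (SE 0.14, adjusted p 3.65e-06), 3 of 8 (12.6% of all genes). Kcnd2 and Kcnd3 had passed the filter only through mouse, so a difference was built into 2 of these 3 calls. The mouse libraries lay above all others for these 3 genes. Damaraland libraries overlapped those of guinea pig for all 3 genes, and naked mole-rat libraries did for Kcnd2. For Kcnd3 and Kcnip2 every naked mole-rat library lay above those of guinea pig, with mean differences of 0.73 and 0.64. The lower average of the mole-rats was thus not a difference from guinea pig in these genes. No gene was called in both mole-rats, with 1 sign, against both guinea pig and mouse (0 of 8; 4.68% of all genes), and none was with voom. At an unadjusted p under 0.05 all 8 differed in the average contrast. Kcnj3 (-0.99), Kcnq1 (0.93), Kcnh2 (-0.71) and Hcn4 (-0.58) had limma adjusted p-values of 0.0117 or less with differences below 1. With voom the contrast of Hcn4 was -0.11 (adjusted p 0.841). The median average contrast was -0.85 for the 8 genes and -0.01 for all genes tested. Every Kcnj2 library of the mole-rats, from 12.28 upward, was above every outgroup library, up to 12.10.

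Other genes of cardiac excitability were taken from a list of 69, of which 63 had a row and 41 passed the filter. In the average contrast 3 of the 41, or 7.32%, were called higher in mole-rats (10.8% of all genes) and 12, or 29.3%, lower (12.6% of all genes). The median was -0.33, beside -0.01 for all genes. Among inward rectifier and ATP-sensitive channel genes 5 of 8 tested were lower and 1 was higher. Depolarising sodium and calcium channel genes had 3 of 11 lower and 2 higher. Regulators of the transient outward current had 2 of 4 lower. Against each other species singly, mouse was called higher in 7 of the 41, or 17.1% (6.60% of all genes), and lower in 3, or 7.32% (3.80% of all genes). Some of the 41 genes passed the filter only through the species where they were highest, Kcnk3, Kcnj4 and Kcnj14 among them. A difference was built into their part in these counts.

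Kcnj5, given above, differed in the same direction in both mole-rats from both outgroups. Cacna2d2, an auxiliary calcium channel subunit gene, had a positive average contrast of 1.12 (SE 0.22, adjusted p 0.00024), with mean values of 6.90, 8.02, 5.92 and 6.76 in naked mole-rat, Damaraland mole-rat, guinea pig and mouse; naked mole-rat and mouse differed by 0.14 (adjusted p 0.722).

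Among the lowest average contrasts were genes for which 1 outgroup species had far higher values than the other. Kcnk3, the gene of the background potassium channel TASK-1, had 8730, 7946 and 8961 scaled reads in mouse and at most 62.6 in any other library (average contrast -3.05, SE 0.18, limma adjusted p 2.96e-10). Cacna1h, a T-type calcium channel gene, had 15019, 12022 and 11962 in guinea pig and 122 to 774 elsewhere (average contrast -2.33, SE 0.16, adjusted p 1.56e-09). The average contrasts of Kcnj4 and Kcnj14, whose reads were also highest in guinea pig, were -2.30 (SE 0.14, adjusted p 7.07e-10) and -1.97 (SE 0.11, adjusted p 2.43e-10). Kcnk3, Kcnj4 and Kcnj14 passed the filter on low values only through the species where each was highest. A difference was therefore built into their contrasts.

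**Figure D5:**
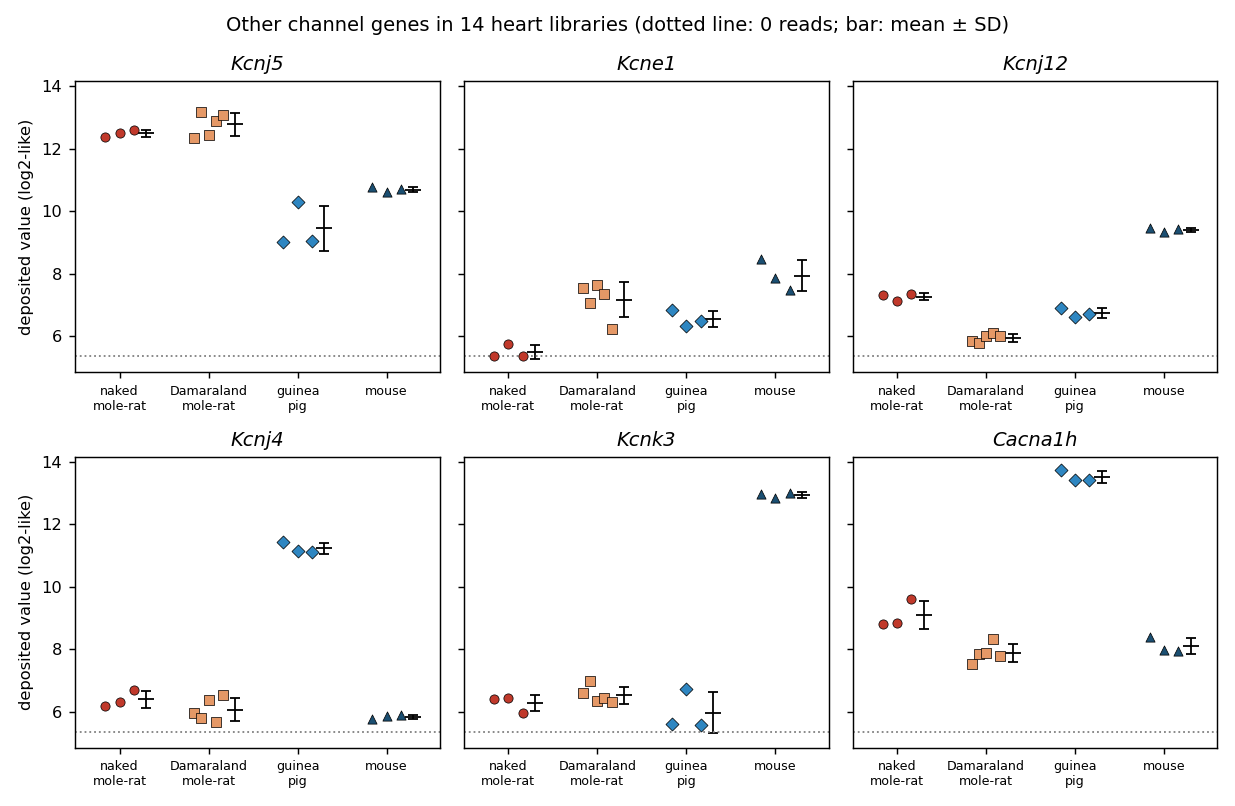
Deposited log2-like values (y axis) of 6 further channel genes in each of 14 heart libraries by species (x axis); points are single animals and bars the mean and SD. Kcnj5 is higher in both mole-rats, Kcnk3 and Kcnj12 in mouse, Kcnj4 and Cacna1h in guinea pig, and Kcne1 is near the 0-read line in naked mole-rat.

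As a description of likeness, each gene was correlated with every tested gene over the 14 heart libraries, which fall into 4 species and share their depth and scaling. Among all genes tested, the one most like Kcnd3 was Kcnip2, a partner subunit gene, with a Pearson r of 0.983, followed by Il10rb (0.982) and Mapk10 (0.981). Kcnd2 and Kcnip2 had r 0.978, and Kcnd2 and Kcnd3 had 0.952. Those most like Kcnip2 were Trabd2b (0.993), Mov10l1 (0.991) and Tmem252 (0.990), and those most like Kcnd2 were Ucp3 (0.989), Ccnb1ip1 (0.988) and Fndc5 (0.987). All of these had their highest mean in mouse. Genes like Kcnj2 included Polr2b (0.963) and Acsm5 (0.961), and Kcnq1 most like Ubr4 (0.969), Rad50 (0.964) and Scyl3 (0.963). The nearest to Hcn4 were Hibadh (0.963), Cmpk2 (0.960) and Ccdc107 (0.960). Kcnh2, nearest to Fzr1 (0.921), Tubg1 (0.920) and Mindy1 (0.918), and Kcnj3, nearest to Lamtor1 (0.891), Mum1l1 (0.887) and Ddr2 (0.885), had no neighbour as close. Between members, Kcnj2 and Kcnd2 ran in opposite directions (r -0.905), and Kcnh2 was near 0 with Kcnj3 (-0.016), Kcnj2 (-0.045) and Kcnd2 (-0.060).

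In liver, measured in 4 naked and 5 Damaraland mole-rats, 3 guinea pigs and 2 mice, the same genes were mostly rare, and no test was made because the tables were transformed separately. The naked mole-rats were 13 to 17 months old, the Damaraland mole-rats (1 of them female) 36 or 48, and the guinea pigs and mice as for heart. By the labels 10 animals gave both tissues. For 1 of these, a Damaraland mole-rat, the labels conflict, with 48 months for heart and 36 for liver. Levels are reads per 1000000 recovered reads of the library (rpm). Kcnj2, at 75.9 to 633 rpm in heart, had 0.436 to 5.63 in liver. Kcnh2 had 29.6 to 281 in heart and 0.0523 to 0.860 in liver. Hcn4 had at most 0.203 and Kcnd2 at most 0.405 rpm in any liver. Kcnq1 had the highest mean rpm of the 8 in guinea pig liver, at 17.6 ± 3.07 (SD, n = 3), against means of 1.62 to 3.06 in the other species. In guinea pig liver replicate 2 Kcnj3 (19.4) exceeded Kcnq1 (18.5). Kcnj3 in guinea pig liver had 4.62 to 19.4, and in mouse liver 0.163 and 0.446. Kcnip2, which in mouse had 150 to 188 rpm in heart and 0.109 and 1.87 in liver, had in guinea pig 2.60 to 3.94 (heart) and 0.885 to 6.31 (liver). In guinea pig the heart and liver ranges of Kcnip2 thus overlapped. They also did in Damaraland mole-rat, at 1.64 to 7.12 in heart and 1.2 to 2.44 in liver. In naked mole-rat, at 4.5 to 7.59 in heart and 2.2 to 2.83 in liver, they did not.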

How the data were processed

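Heart and liver libraries were made from ribosomal-RNA-depleted total RNA, per the labels' protocols. The deposited values are log2-like variance-stabilised values, 1 table per tissue; cutadapt, Salmon 013.1, DESeq2 and the build GRCm38 are named in the submitters' processing notes, with no roles stated. The references of the other species and the assignment of genes across species are not given in the sources used here. Over both tables, 26 columns belonged to other series and were not used. Inverting the transform gave whole reads for 100% of values (tolerance 0.01 reads; largest deviation 3.0e-09 in heart), which gave depth and scaled reads. Species were compared with limma 3.58.1 (R 4.3.3) on the deposited log2 values of all 14 heart libraries, with a variance trend and Benjamini-Hochberg adjustment over 10667 genes whose mean was at least 1 above the value at 0 reads. Calls needed an adjusted p under 0.05 and a difference of at least 1. voom on the recovered reads and other settings were alternatives. The script was tested on simulated data. Symbols were matched for 13921 of 13928 rows. Named genes were all members, further channel genes called in all 4 mole-rat contrasts, the 5 largest average contrasts in each direction, and the 3 genes most correlated with each member. Members and lists were chosen with earlier results of these data known. A few named genes are not reported here.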

Additional observations from a re-analysis of the deposited data

Results flagged for a closer look

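In the 5 Damaraland hearts a single library stood apart for Kcnj2 and Kcnq1, by the gap to its nearest neighbour relative to the whole range (Dixon's test, 95% level). Of 9 sets of values tested, about 1 in 20 would be flagged by chance. Kcnj2 was at 12.40 in replicate 5, where the other 4 were at 12.92 to 13.06. Kcnq1 was at 10.51 in the same library, with the others at 10.76 to 10.86. Kcnd2 also met this criterion, at 5.66 in replicate 2 from 2 reads, but with the others at 5.36, the value of 0 reads, any read would have met it. Without Damaraland replicate 5, the count of genes called between mouse and each other species was 7, as with it.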

How the results depend on the processing

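With no size threshold the pairwise calls rose from 23 to 35, the calls of the average contrast from 4 to 8 and those of the other channel genes from 15 to 30. Testing against a difference of 1 gave 15, 2 and 9, and 4 genes called between mouse and each other species in place of 7. Keeping only genes above the median of the table, which left 4 of the 8 genes, gave 10, 1, 7 and 3. With voom on the recovered reads the first 3 counts were 31, 5 and 20. The libraries' numbers did not pair animals, which were of different species. Same-numbered libraries correlated at -0.26 to 0.30 over 18 pairs, and 0 of 12 libraries correlated best with their own number in every species; with the replicate block the counts were 23, 5 and 14. Leaving out each library gave 21 to 26, 4 to 5, 13 to 16 and 6 to 7 calls.

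The balance of transient outward and delayed rectifier genes moved with its definition. From pore subunits alone it was -4.73, -5.12, -5.47 and -0.77 in naked mole-rat, Damaraland mole-rat, guinea pig and mouse. On log2 scaled reads plus 1 the first 3 were -6.40, -7.89 and -8.15, and as the log2 ratio of summed reads the values were -5.06, -6.17, -6.64 and 0.94. Without Kcnd3 guinea pig had -4.92 and mouse 0.58. Under each of these definitions mouse lay above the other 3 species.

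Of 1532 values of single genes and contrasts under alternatives, 1450 kept their direction and side of the threshold, 45 gained and 18 lost a call, and 19 changed sign, all of them in differences that were not called. With a library left out, the ranges of these differences were -0.20 to 0.14 for Kcnd2 and -0.48 to 0.32 for Kcnj3 between naked mole-rat and guinea pig, -0.13 to 0.10 for Kcnip2 and -0.04 to 0.09 for Kcnq1 between Damaraland mole-rat and guinea pig, and -0.06 to 0.64 for Kcnj3 between the mole-rats. Otherwise, Kcnd2 between naked mole-rat and guinea pig was 0.14 with array weights or without the 2 shallowest libraries and 0.31 with voom, and Kcnip2 between Damaraland mole-rat and guinea pig was -0.02 with array weights, -0.05 with the replicate block and -0.03 with voom. The cause of these shifts was not tested. Leaving out the shallowest libraries, naked mole-rat replicate 3 and Damaraland replicate 5, was chosen after seeing the data and left the count of 7. Depth limits Kcnd2 and Kcnd3 outside mouse, where a library held 0 to 24 reads.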
